A study of Mus musculus with 3 samples.

Results

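The immediate early genes described here are 10 genes for transcription factors: the AP-1 genes Fos, Fosb, Fosl1, Jun and Junb, the zinc finger genes Egr1, Egr2 and Egr3, and the nuclear receptor genes Nr4a1 and Nr4a2. They were found on the arrays through the RefSeq accession of each probe and were represented by 11 of the 39404 probes and by 10 of the 32524 genes or unnamed accessions analysed. Expression was measured on 3 Agilent 1-colour (Cy3) arrays, with 1 array for each of 3 groups of primary mouse embryonic fibroblasts, cells grown out of an E10.0 embryo of a C57BL/6J mouse. The cells of every group, the control included, were Rb-/-;ATM-/-, that is, without the retinoblastoma protein pRB and without ATM, the kinase that responds to broken DNA. The 3 arrays are called here, by their labels, the control array (empty vector), the shRNA array (a vector carrying a short hairpin RNA that targets Dnmt1, the enzyme that copies DNA methylation at replication) and the ATM array (a vector that expresses ATM). All were kept in puromycin at 4 ug/ml for 3 days and measured after 4 further days in culture. The labels do not say how many embryos or cultures were used.

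Immediate early genes are switched on within minutes of a growth factor, serum or stress signal, without prior protein synthesis, by factors that are already in the cell, chiefly serum response factor (SRF) with its ternary complex partners and the cAMP response element binding protein CREB. Their messenger RNAs are short-lived, so a level at one time reflects recent signalling as well as steady growth. Fos and Jun proteins pair as AP-1, Egr proteins bind GC-rich sites, and Nr4a proteins are orphan nuclear receptors that act without a known physiological ligand. Fibroblasts given fresh serum are the classical system in which these genes were found.

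Each value is the processed signal of a probe, an intensity in arbitrary units from which background has been subtracted. Log2 ratios and folds were taken after the 75th percentile of each array had been subtracted on the log2 scale. That scaling added 0.17 to the raw log2 ratio of the shRNA array over the control array and 0.14 to that of the ATM array. With 1 array a group, no difference between cultures could be tested and no p-value is given. The available measures of error are technical. Different probes of one gene had log2 ratios with a pooled SD of 0.21 between the Dnmt1 shRNA and control arrays, 0.33 between the ATM array and the control array, and 0.38 between the ATM array and the shRNA array. A gene is called different here if it was at least 2-fold higher or lower.

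On each array 21659 to 23476 of the 39404 probes were well above background, and 0 spots were saturated. The Dnmt1 probe read 4908 on the control array, 956 on the shRNA array (4.58-fold lower) and 3169 on the ATM array. One Atm probe read 430, 366 and 409 and another was dim throughout; their place relative to the deletion and the vector is not known, so they check neither, and the ATM array goes by its label alone. The Rb1 probe read 541, 782 and 460, and its place relative to the Rb deletion is not known either. Of 10 fibroblast markers, 9 were well above background on the control array and 10 on each of the other two, with summed signals of 964871 to 1414810. Thy1, the exception, read 31.8, 1218 and 44.3, at least 36.2-fold higher on the shRNA array than the control, and Pdgfra was 2.26-fold higher there. Of 6 epithelial markers, 2, 4 and 2 were well above background on the control array, the shRNA array and the ATM array, with summed signals of 5465, 6287 and 1054. Krt19 carried most of each sum, at 5351, 4094 and 899. Krt8 and Krt18 read 742 and 1341 on the shRNA array and were not well above background on the other two, and Epcam was not well above background on any. Of 5 muscle markers, 0, 3 and 1 passed that mark (summed signals of 70.0, 208 and 273), and Myod1 and Myog were not on any array. Endothelial markers numbered 2 of 5 on each array (summed signals of 227 to 343, with Cdh5, Tek and Emcn dim throughout), neural markers 4 of 5 on each array (24075 to 28571, with Sox2 dim) and blood markers 4, 3 and 3 of the 5 with a probe (1890, 2337 and 1064, with Adgre1 dim and Ptprc well above background on the control array alone). The part of these markers in the results below was not tested.

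Of the 10 genes, 9 were well above background on all 3 arrays. Egr3 was not well above background on any, with signals of 8.63, 5.24 and 10.2, and has no ratio. For 6 of the 9 the control array gave the highest value of the 3, and for the other 3, Fosl1, Jun and Egr2, the ATM array did. For none was the shRNA array the highest. The lowest value was on the shRNA array for 4 genes, on the ATM array for 4 and on the control array for 1, Egr2. Compared with the control array, 6 genes stood lower on both other arrays and 1 higher on both. Both comparisons share the control array, which by itself favours the same sign in both. The shares of all genes with these orders were not counted, so these counts are a description only.

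**Figure D1:**
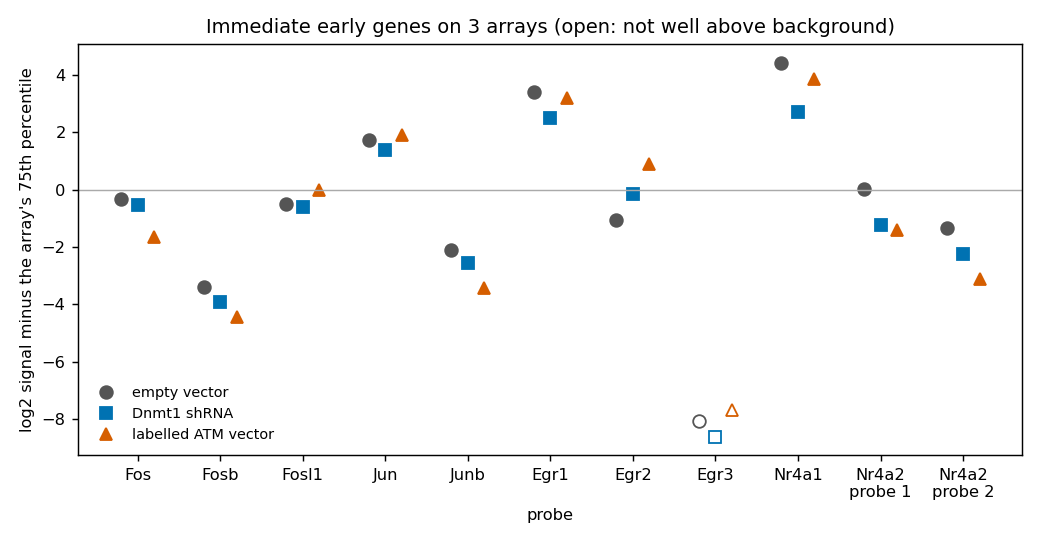
Log2 signal minus the 75th percentile of the array (y axis) for each probe of the 10 genes (x axis) on the control array (circles), the shRNA array (squares) and the ATM array (triangles), with open symbols for signals not well above background. Levels are to be compared between arrays within a probe only; Egr2 stands at -1.05, -0.16 and 0.89, and Nr4a1 at 4.43, 2.72 and 3.87.

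The shRNA array was first set against the control array, which asks how these genes stand in the culture given the hairpin. On the shRNA array Nr4a1 was 3.27-fold lower and Nr4a2 2.12-fold lower, Egr1 was 1.88-fold lower, the AP-1 genes were 1.08-fold to 1.45-fold lower, and Egr2 was 1.85-fold higher. Thus 2 of the 9 were at least 2-fold lower and 0 were higher, against 0.991% lower and 3.39% higher among the 17261 genes well above background on both arrays (2.23% and 7.68% of all 19359 genes tested). The log2 ratio was below 0 for 8 of the 9, against 56% of the 17261 genes. The median log2 ratio was -0.45, beside -0.04 over those genes. Both arrays were on the same slide. With normexp, another background correction, 1 gene was 2-fold lower, as Nr4a2 fell just short of the mark. In bulk cultures fewer cells of a type and less RNA per cell cannot be told apart.

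The ATM array was then set against the control array, which asks the same of the culture given the ATM vector. Here 4 of the 9 were at least 2-fold lower, Nr4a2 (3.08-fold), Fos (2.52-fold), Junb (2.50-fold) and Fosb (2.07-fold), and 1 was higher, Egr2 (3.83-fold). With normexp 3 were lower, since Fosb stood at -0.58. Among the 16629 genes well above background on both arrays 4.38% were lower and 5.69% higher (7.96% and 8.45% of all 18463 genes tested). The log2 ratio was below 0 for 6 of the 9, against 45.4% of the 16629 genes, and the median was -0.56, beside 0.06. Only the ATM array lay on slide 2, so slide and group cannot be told apart in this comparison. Both comparisons use the same control array, so a value that is off on that array enters both.

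**Figure D2:**
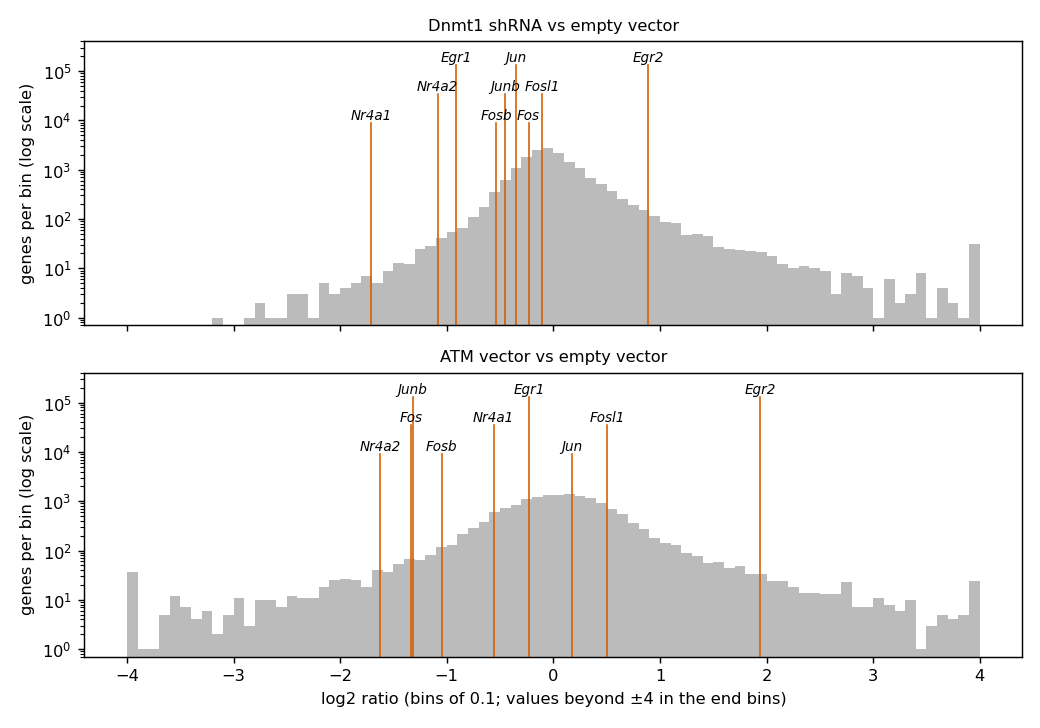
Number of genes (y axis, log scale) by log2 ratio against the control array (x axis, bins of 0.1) for genes well above background on both arrays, with the shRNA array above and the ATM array below; lines mark the 9 genes. Nr4a1 at -1.71 lies in the sparse left tail of the upper panel, and Egr2 at 0.89 and 1.94 lies right of the centre in both.

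Among the AP-1 genes, the Fos family was lower on both arrays for Fos and Fosb and not for Fosl1. Fos (NM_010234) encodes c-Fos, which binds DNA only when paired with a Jun protein. Its probe is spotted 10 times on each array and gave 1854 ± 110 (SD, n = 10 spots) on the control array, 1406 ± 56.8 on the shRNA array and 667 ± 26.2 on the ATM array. After scaling, the spots of the ATM array lay from -1.73 to -1.53, below every spot of the other arrays. Those of the shRNA array lay from -0.64 to -0.47 and those of the control array from -0.54 to -0.20, so that these ranges overlapped, by 1 of the 10 control spots of Fos. The log2 ratios were -0.23 and -1.34. The first was close to the spread between probes of 0.21. It fell within that spread with normexp (-0.20) and with the 75th percentile of probes detected on all arrays (-0.19). The spots are repeats of 1 labelled RNA and do not stand for separate cultures.

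**Figure D3:**
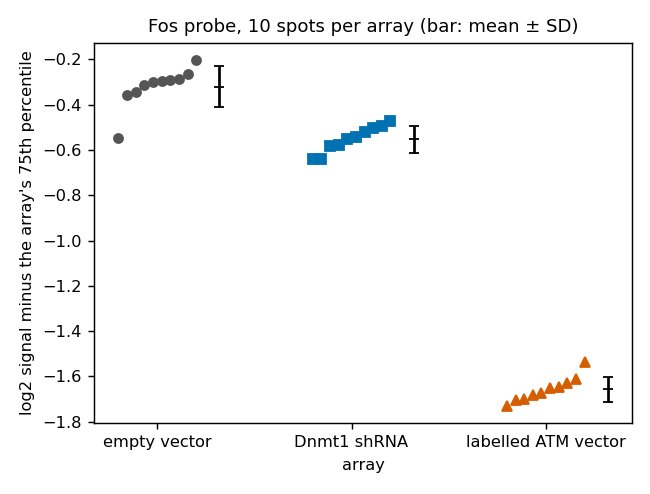
Log2 signal of the 10 spots of the Fos probe minus the 75th percentile of the array (y axis) on each of the 3 arrays (x axis), sorted within an array, with the mean and SD of the spots as bars. The spots of the ATM array form a band of their own, from -1.73 to -1.53.

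Fosb (NM_008036), a Fos relative whose truncated splice form accumulates on repeated stimulation, read 219, 135 and 96.1 on the control array, the shRNA array and the ATM array. The control array was highest and the ATM array lowest, with log2 ratios of -0.53 and -1.05 against the control array. These signals are low, the lowest to count as well above background being 25.1 to 37.8 by array, and the second ratio was -0.58 with normexp, which ends the 2-fold call. Fosl1 (NM_010235) encodes Fra-1, which is induced later than c-Fos and is itself an AP-1 target. It read 1625, 1345 and 2093, with log2 ratios of -0.11, within the spread between probes, and 0.50.

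The Jun genes differed from each other. Jun (NM_010591) encodes c-Jun, the partner that can bind DNA as a homodimer, and read 7704, 5392 and 7886. Its log2 ratio was -0.35 on the shRNA array and 0.17 on the ATM array, the latter within the spread between probes. Junb (NM_008416), a Jun family member that can restrain c-Jun, read 534, 348 and 195. It was 1.37-fold lower on the shRNA array and 2.50-fold lower on the ATM array, so that Fos, Fosb and Junb share 1 order of the arrays, which Nr4a2 has too.

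The 250 bases before the start of Fos, Fosb and Junb are printed because these are the AP-1 genes at least 2-fold lower on the ATM array. They come from RefSeq (GRCm38.p6), a different build from the mm9 placement of the array design, and read 5′ to 3′ on the strand of the gene. Fos lies at chr12:85473640-85473889 (+), Fosb at chr7:19310046-19310295 (-) and Junb at chr8:84978749-84978998 (-). Capitals mark TGACG, the core of the cAMP response element bound by CREB, or its reverse complement CGTCA.
Fos: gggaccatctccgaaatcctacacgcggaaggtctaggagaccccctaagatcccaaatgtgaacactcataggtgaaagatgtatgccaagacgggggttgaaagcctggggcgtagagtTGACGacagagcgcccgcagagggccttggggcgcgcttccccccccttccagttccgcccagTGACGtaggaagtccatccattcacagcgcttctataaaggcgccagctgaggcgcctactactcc
Fosb: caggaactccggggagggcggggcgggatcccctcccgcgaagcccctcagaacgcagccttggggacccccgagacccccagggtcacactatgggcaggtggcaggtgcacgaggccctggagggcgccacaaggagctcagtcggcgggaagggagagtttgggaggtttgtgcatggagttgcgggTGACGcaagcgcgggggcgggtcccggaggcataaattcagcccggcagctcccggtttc
Junb: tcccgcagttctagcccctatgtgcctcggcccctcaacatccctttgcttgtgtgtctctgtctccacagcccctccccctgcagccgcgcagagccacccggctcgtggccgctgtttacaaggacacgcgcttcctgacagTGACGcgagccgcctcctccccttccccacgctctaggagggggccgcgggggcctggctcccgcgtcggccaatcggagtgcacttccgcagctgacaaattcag
Fos holds 2 such element cores, beginning 129 and 66 bases before the start, and Fosb and Junb hold 1 each, beginning 60 and 106 bases before it. The Jun window, chr4:95052223-95052472 (-), held 0. Of the 10 genes 7 had windows that were searched, 11 in all because Egr2 has 5. At least 1 element core was held by 8 of the 11 windows, from 6 genes, against 17.8% of the 32851 promoter windows of this length. Of these 8, 3 are overlapping Egr2 windows that hold the same cores. The whole element TGACGTCA, which contains the core on both strands, and the AP-1 site TGACTCA were in 0 of the 11 windows (1.55% and 4.46% of all windows). Only exact letters were counted. The Jun window holds a stretch that differs from the whole element by 1 base and was not counted. The EGR site GCGNGGGCG was in 3, those of Fosb, Nr4a1 and Nr4a2 (4.7%). The element core and the EGR site contain CG, and the 11 windows held 15 to 44 CG against a median of 6 over all windows. The shares over all windows were not matched for CG content. Both strands were searched, a match is a description of the letters, and binding was not measured.

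The Egr genes differed in direction. Egr1 (NM_007913) encodes a zinc finger factor that couples growth signals to many secondary genes, and read 24593, 11650 and 19075. It was 1.88-fold lower on the shRNA array and 1.17-fold lower on the ATM array, where the log2 ratio of -0.23 was within the spread between probes. Egr2 (NM_010118), also known as Krox20, is best known for its roles in the hindbrain and in myelinating Schwann cells. It read 1117, 1842 and 3888, an order opposite to that of Fos, Fosb, Junb and Nr4a2, with log2 ratios of 0.89 and 1.94. Egr2 had the largest range of the 9, 1.94 on the log2 scale. It was the only one of the 9 with a log2 ratio above 0 in both comparisons.

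The starts of Egr2 are several. Window 3 of its 5, chr10:67537619-67537868 (+), holds a CArG box, the element bound by SRF, beginning 72 bases before the start, and is quoted by 30 bases around it, chr10:67537794-67537823 (+), because Egr2 alone of the 9 was higher on both other arrays. Capitals mark the CArG box and the CGTCA element core.
Egr2: agtCCATATATGGgcagcgaCGTCAcgggt
CArG boxes were in 4 of the 5 Egr2 windows, of which 3 overlap and hold the same box, and in 0 of the windows of the other 6 genes, against 1.47% of all windows. No window of Fosl1, Egr1 or Egr3 was searched. Windows on the chromosome that carries Egr1 were left out for the listed genes, though the share over all windows keeps them. Whether Egr1 has a CArG box near its start was therefore not examined. For the genes with windows, bases farther than 250 before the start were not searched, so boxes there would be missed.

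The 5 genes well above background on all arrays, among 11165 searched, whose 2 log2 ratios lay closest to those of Egr2 were Serpina9 (0.81 and 1.97), Glrp1 (0.83 and 1.86), Cela1 (0.92 and 2.04), Rasl11b (0.80 and 1.84) and Stbd1 (0.99 and 1.82). Their largest difference from Egr2 in either ratio was 0.07 to 0.12. The likeness rests on 3 arrays.

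The Nr4a genes had the lowest log2 ratios of the 9, Nr4a1 in the first comparison and Nr4a2 in the second. Nr4a1 (NM_010444), which encodes Nur77, a receptor involved in growth and in the death of T cells, read 49731, 13552 and 30675. Its log2 ratio was -1.71 on the shRNA array, a value at or below which lay 0.214% of the 17261 genes, and -0.56 on the ATM array. Nr4a2 (NM_013613) encodes Nurr1, which dopamine neurons need, and has 2 probes. Probe 1 read 2368, 881 and 782, and probe 2 read 922, 437 and 242. Both probes were lower on each of the other arrays than on the control array, with log2 ratios of -1.26 and -0.91 on the shRNA array and -1.46 and -1.79 on the ATM array. Nr4a2 was the 1 gene of the 9 at least 2-fold different in both comparisons by the mean of its probes.

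The upstream windows of Nr4a1, chr15:101266596-101266845 (+), and of Nr4a2, chr2:57124004-57124253 (-), are printed in full because these genes were the lowest on the shRNA array. Capitals mark TGACG or CGTCA as above.
Nr4a1: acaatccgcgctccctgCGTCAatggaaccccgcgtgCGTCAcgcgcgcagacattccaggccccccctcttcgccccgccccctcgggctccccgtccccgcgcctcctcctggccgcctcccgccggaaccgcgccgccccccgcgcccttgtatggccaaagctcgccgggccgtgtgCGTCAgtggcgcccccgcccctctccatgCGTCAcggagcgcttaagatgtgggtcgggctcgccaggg
Nr4a2: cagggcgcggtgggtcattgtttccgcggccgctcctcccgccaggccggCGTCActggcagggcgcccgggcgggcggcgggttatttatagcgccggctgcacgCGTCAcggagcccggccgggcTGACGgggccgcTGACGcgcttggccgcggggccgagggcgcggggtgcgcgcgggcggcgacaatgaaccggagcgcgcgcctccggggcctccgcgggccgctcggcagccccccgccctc
Each holds 4 element cores, the most among the 11 windows, beginning 233, 213, 69 and 40 bases before the start of Nr4a1 and 200, 144, 123 and 111 bases before that of Nr4a2. They were also the richest in the dinucleotide CG, with 34 in Nr4a1 and 44 in Nr4a2. The median over all windows was 6, and the other windows of these genes held 15 to 26. Of all windows, 96.5% held fewer CG than that of Nr4a1 and 99.5% fewer than that of Nr4a2. Their GC content was 74.4% and 80.0%, against a median of 52.4%. Methylation of these windows was not measured.

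The ATM array was also set against the shRNA array, on different slides. Nr4a1 was 2.22-fold and Egr2 2.07-fold higher on the ATM array, and Fos was 2.15-fold lower. A log2 ratio below 0 was seen in 4 of the 9, against 42.9% of the 17045 genes well above background on both arrays. At 2-fold, 2 were higher and 1 lower, against 6.58% and 6.71% of those genes (7.88% and 12.5% of all 19525 genes tested). The split depends on the scaling: it was 2 higher and 0 lower after scaling to the array median, and 1 higher and 1 lower after cyclic loess or with the 75th percentile of the probes detected on all arrays. The other log2 ratios were 0.68 for Egr1, 0.61 for Fosl1, 0.52 for Jun, -0.51 for Fosb, -0.54 for Nr4a2 and -0.87 for Junb. Fos, Fosb, Junb and Nr4a2 were thus lower, and Fosl1, Jun, Egr1, Egr2 and Nr4a1 higher, by more than the spread between probes. For Fosb this was lost with normexp (-0.31), quantile normalization (-0.31) and the array median (-0.32), and for Nr4a2 with the array median (-0.34) and the brightest probe (-0.20). The 2 probes of Nr4a2 gave -0.20 and -0.88.

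**Figure D4:**
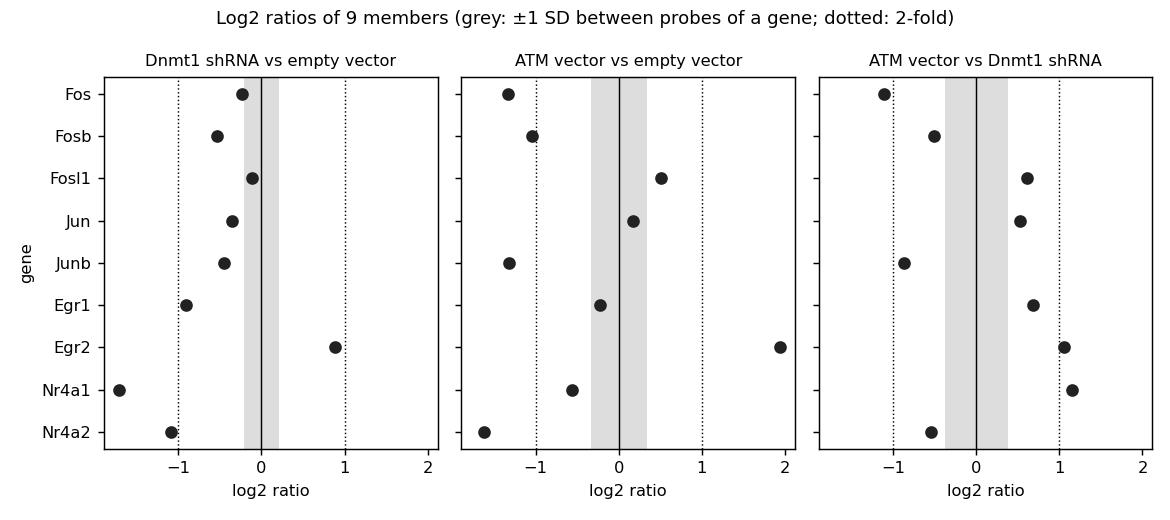
Log2 ratio (x axis) of the 9 genes well above background (y axis) in the 3 comparisons, with 1 SD between probes of a gene in grey and 2-fold as dotted lines. Egr2 lies right of the grey band in each panel, and Nr4a2 left of it in each.

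Of the relatives of these genes outside the list, Fosl2 and Jund, the remaining Fos and Jun genes, had log2 ratios of -0.01 and 0.06 on the shRNA array and -0.27 and 0.08 on the ATM array. Egr4 and Nr4a3 were not well above background on any array. Of 12 other bZIP genes, which can pair with Fos or Jun, 8 were measured on both arrays in each comparison with the empty vector. On the shRNA array 0 of the 8 were 2-fold different, with Maf, at 0.92, the farthest from 0. Among all genes measured on both arrays 0.991% were 2-fold lower and 3.39% higher. On the ATM array Batf3 was 5.38-fold lower, Maff 2.57-fold lower and Atf3, a stress-induced relative, 2.57-fold higher. The shares of all genes there were 4.38% lower and 5.69% higher. Batf2, outside the 8, was not well above background on the control array, at 39.8. It read 93.7 on the shRNA array and 116 on the ATM array, 2.64-fold and 3.22-fold higher. These folds include a dim signal and are approximate.

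The factors that induce these genes had medians near 0. Of 16 SRF, ternary complex, CREB and Mef2 factors and their coactivators, 15 were measured on both arrays, with medians of -0.09 on the shRNA array and -0.06 on the ATM array. None was 2-fold different on the former; Crem, an inducible CREB relative, was the lowest at -0.85, and Srf stood at -0.26. On the latter Myocd, a muscle coactivator of SRF, was 2.06-fold higher. Among all genes measured on both arrays 0.991% were 2-fold lower and 3.39% higher on the shRNA array. For the ATM array these shares were 4.38% and 5.69%.

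All 36 of the other immediate early genes listed were measured on both arrays in each comparison. On the shRNA array 25 of them had a log2 ratio below 0, against 56% of all genes measured on both arrays, and the median was -0.23. Ptgs2, the inducible cyclooxygenase, was 2.77-fold lower and the kinase Plk3 2.05-fold lower, and 0 were 2-fold higher. Among all genes measured on both arrays 0.991% were 2-fold lower and 3.39% higher. Btg2, a growth inhibitor, stood at 0.81. On the ATM array 23 were below 0, against 45.4% of all genes, with a median of -0.15. There 6 were at least 2-fold lower and 2 higher, against 4.38% and 5.69%. The lowest were Id1 (3.61-fold), Csrnp1 (2.84-fold), Ier3 (2.53-fold) and Lif (2.49-fold), and the 2 higher were Arc and Zfp36, at 1.14 and 1.05 on the log2 scale. Ptgs2 there stood at 0.37.

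The list of feedback genes held 18, all measured on both arrays. Many of them, such as the Dusp and Spry genes, dampen the signals that induce the others. The Etv genes on the list are transcription factors and not inhibitors of these signals, so the counts below are not of dampening genes alone. On the shRNA array 14 were below 0, against 56% of all genes, with a median of -0.28, and 0 were 2-fold different; Spry2, an inhibitor of receptor kinase signalling, was the lowest at -0.83. On the ATM array 10 were below 0, against 45.4% of all genes, and the median was -0.06. Spry2 was 2.73-fold lower there, and Dusp1, a phosphatase that inactivates MAP kinases, was 2.51-fold higher. Among all genes measured on both arrays 0.991% were 2-fold lower and 3.39% higher on the shRNA array. For the ATM array these shares were 4.38% and 5.69%. The corepressors Nab1 and Nab2, which bind Egr proteins, had log2 ratios of -0.36 and 0.19, then -0.58 and -0.02.

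Genes known as AP-1 targets stood on both sides of 0. Of 15, 12 were measured on both arrays in the first comparison (median -0.05) and 11 in the second (median 0.16). Hbegf, a growth factor of the EGF family, had log2 ratios of -0.64 and -0.91. Mmp3, a matrix protease, read 45.3 on the control array and 242 on the shRNA array, 5.98-fold higher, and was not well above background on the ATM array, at least 1.26-fold lower. For such a gene the dim side is set to the weakest signal that passed the background mark there, so the fold is a lower bound. Mmp13, another matrix protease, read 65.2 on the control array and was not well above background on the other two, at least 2.32-fold and 1.82-fold lower. Of the retinoid X receptors, partners of Nr4a1 and Nr4a2, Rxrg read 569, 132 and 153 as a mean of 2 probes, 3.85-fold and 3.37-fold lower. Not every Rxrg probe was well above background on the shRNA array and the ATM array. These Rxrg folds therefore include a dim signal and are approximate. Rxra (0.21 and -0.32) and Rxrb (-0.09 and 0.50) were not 2-fold different.

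**Figure D5:**
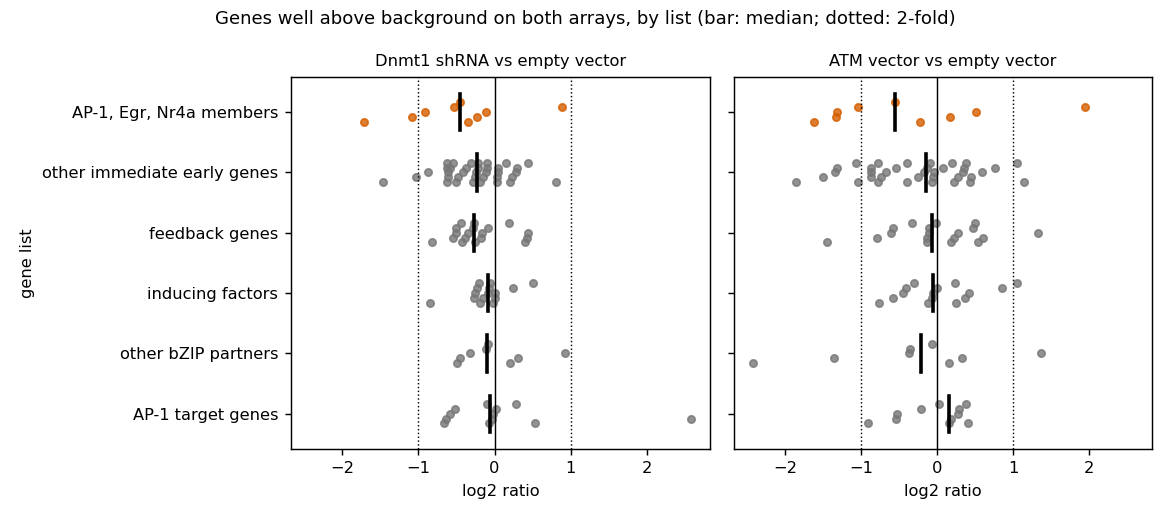
Log2 ratio (x axis) of each gene well above background on both arrays, by list (y axis), for the shRNA array (left) and the ATM array (right) against the control array; bars are medians and dotted lines 2-fold. The medians of the 10-gene list, -0.45 and -0.56, lie left of those of the other lists drawn.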

How the data were processed

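The submitters' processing notes name Agilent's Feature Extraction software, version 10.7.3.1, whose output files the authors deposited. The processed signal is a linear intensity, with background subtracted and spatial trends removed array by array, per the file headers. The authors' deposited value table repeats these intensity values to within 0.495%. The flags for well above background, saturation and outliers are marks set by that software, per the file headers.

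Control spots and 167 to 235 outlier spots per array were left out, repeated spots of a probe were averaged on the log2 scale, and each array's 75th percentile was subtracted. Probes well above background on either array of a comparison were kept, and their log2 ratios were averaged by gene. Probes were named through RefSeq accessions and a gene table of GRCm38.p6: 26391 matched exactly 1 symbol, and 13013 did not and were left without a symbol. Signals of different probes were not set against each other, because probes bind with different strength. The summed marker signals are an exception. They add signals of different probes without scaling and are a rough description only. With 1 array per group there is no test between cultures, and precision is limited by the number of arrays.

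The 10 genes and all lists were chosen with earlier results of these data known. Besides the 10 genes and the targeted genes, the text names up to 4 genes per list and comparison with the control array, by the size of the log2 ratio on signals measured on both arrays, and the 5 nearest to the gene of largest range. Further names (Arc, Zfp36, Nab1, Nab2, Mmp13, Batf2, Egr4, Nr4a3, Ptgs2 in the second comparison, Mmp3 there and the markers) were chosen after their values were seen. The ratio calculation was tested on simulated data. The files hold no mean spot signal, so normexp (offset 50, limma 3.58.1, R 4.3.3) used the median signal and median background. The rest used Python 3.11.15, numpy 2.4.6, pandas 2.3.3 and matplotlib 3.10.9.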

Additional observations from a re-analysis of the deposited data

How the results depend on the processing

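The 27 log2 ratios of the 9 genes in the 3 comparisons kept their sign under all 10 alternatives. These changed the background correction, the scaling, the filter on dim probes, the choice of probe, the source of the values and the outlier spots. Several of them could hardly move these genes. The filters left every value unchanged, since all probes of the 9 genes were well above background on all arrays. The choice of probe could change Nr4a2 alone. The deposited values repeat the same signals, and keeping outlier spots changed the ratios very little. Of the values under the 10 alternatives, 259 stayed within the spread between probes of the main value. Another 11 moved further, 9 of them after scaling to the array median. That scaling set the median of all genes measured on both arrays at -0.28 for the shRNA array over the control array, the median of the 9 genes at -0.69, and Egr1 at -1.15, past 2-fold; among all genes 1.86% were then 2-fold lower and 2.30% higher (0.991% and 3.39% with the 75th percentile, 1.5% and 2.76% after quantile normalization, 0.29% and 2.06% with normexp). For the ATM array against the shRNA array it left 0 of the 9 genes 2-fold lower (Fos at -0.91), with all genes at a median of 0.29 and 5.17% of them lower and 10.1% higher (6.71% and 6.58% with the 75th percentile). With normexp 1 gene was 2-fold lower on the shRNA array, since Nr4a2 fell just short of the mark, and Fosb stood at -0.27 there and at -0.58 on the ATM array. For the ATM array against the shRNA array 1 gene was 2-fold higher after cyclic loess (Nr4a1 at 0.96) and 1 with the 75th percentile of probes detected on all arrays (Egr2 at 0.99). No paired analysis was possible because each group holds 1 array. Among the genes given a fold, some signals lay near the background mark, such as 44.7 for Lif on the ATM array (mark 32.7) and 52.5 for Myocd on the control array (mark 37.8).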
